A study of Mus musculus with 12 samples.

Results

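The genes described here are 10 genes of the prostaglandin and leukotriene pathway (Ptgs1, Ptgs2, Ptges, Ptgis, Ptger2, Ptger4, Alox5, Alox5ap, Alox15 and Ltb4r1), listed by name without a rule on their values. They are 10 of the 37074 gene names on the array, and 18 of its 56605 non-control probes carry their names. All 10 genes had a probe well above background on every array of at least 1 group.

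Total RNA from the cecum of C57BL/6 mice was hybridised to 1-colour Agilent arrays, on which the brightness of a spot measures the amount of a transcript. There were 4 groups of 3 arrays, namely a sham-operated control and cecum tissue taken 3, 12 or 72 h after cauterization with bipolar forceps, a surgical injury that leads to adhesions. The sham tissue was collected directly at the operation, per the methods. No sham was taken at the later times, so that cauterization cannot be told apart from the operation itself, anaesthesia, recovery and time of day. All mice were wild type, and the methods name pentobarbital anaesthesia for the operation and no further agent for these groups. Their age is not given in the sources used here, and no source says that animals were pooled. The arrays of a group are described as biological triplicates, and p-values measure the spread between them. The labels give the sex as male.

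Eicosanoids are signalling lipids made from arachidonic acid, which phospholipases release from membranes. Cyclooxygenases turn it into prostaglandin H2, from which terminal synthases make prostaglandin E2, prostacyclin and thromboxane, each read by its own receptors. Lipoxygenases turn it into leukotrienes and related lipids, of which leukotriene B4 is a potent attractant of neutrophils. In the gut wall prostaglandins are known for their part in mucosal protection and blood flow.

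A value below is the log2 processed signal of a probe minus the 75th percentile of its array, so that 0 is a probe as bright as that percentile, and a log2 difference of 1 is a 2-fold change. A gene was read by its main probe, the one with the highest mean over the 12 arrays, and the other probes of the 10 genes are given beside it. Called means that the fold change exceeded 2 and that the adjusted p lay below 0.05, where limma fitted the 4 group means and the Benjamini-Hochberg adjustment ran over 56605 probes. The 3 comparisons with sham share the same 3 sham arrays. On each array 60.2% to 65.2% of the probes were well above background and 0 spots were saturated. Precision is limited by having 3 arrays per group.

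The arrays came on 2 slides. The first held all sham and 3 h arrays and replicates 1 and 2 of 12 h, and the second held 12 h replicate 3 and all 72 h arrays, so that slide and the 72 h group are told apart through that 1 array of 12 h alone. The libraries went against the label male, since the probe of Xist was well above background on 12 arrays, those of Ddx3y and Eif2s3y on 0, the main probe of Uty on 1, and of the 6 probes of Kdm5d 1 was so on 12 arrays and 5 on 0. All 10 markers of cecum epithelium were well above background on all arrays of every group.

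Of the 10 genes, 3 were called higher and 1 lower at 3 h against sham, where 7.47% of all genes were called, 3.14% higher and 4.33% lower. At 12 h there were 4 higher and 0 lower, beside 9.28% of all genes called, 3.95% higher and 5.33% lower. At 72 h there were 5 higher and 0 lower, beside 8.9% of all genes, 4.5% higher and 4.4% lower. Among the 23849 genes well above background in a group, 10.4%, 12.8% and 11.6% were called in order of time. The median log2 fold change of the 10 genes was 0.28, 0.53 and 1.52 in order of time, beside 0.06, -0.04 and -0.15 over all genes. By limma's moderated F-test over the 4 groups 7 of the 10 genes differed, against 39.5% of all genes and 56.7% of those well above background. Ptgs2, Alox5ap and Ltb4r1 were called higher at all 3 times, Alox5 at 12 and 72 h, Ptgis lower at 3 h and higher at 72 h, and the main probes of Ptgs1, Ptges, Ptger2, Ptger4 and Alox15 at no time against sham.

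**Figure D1:**
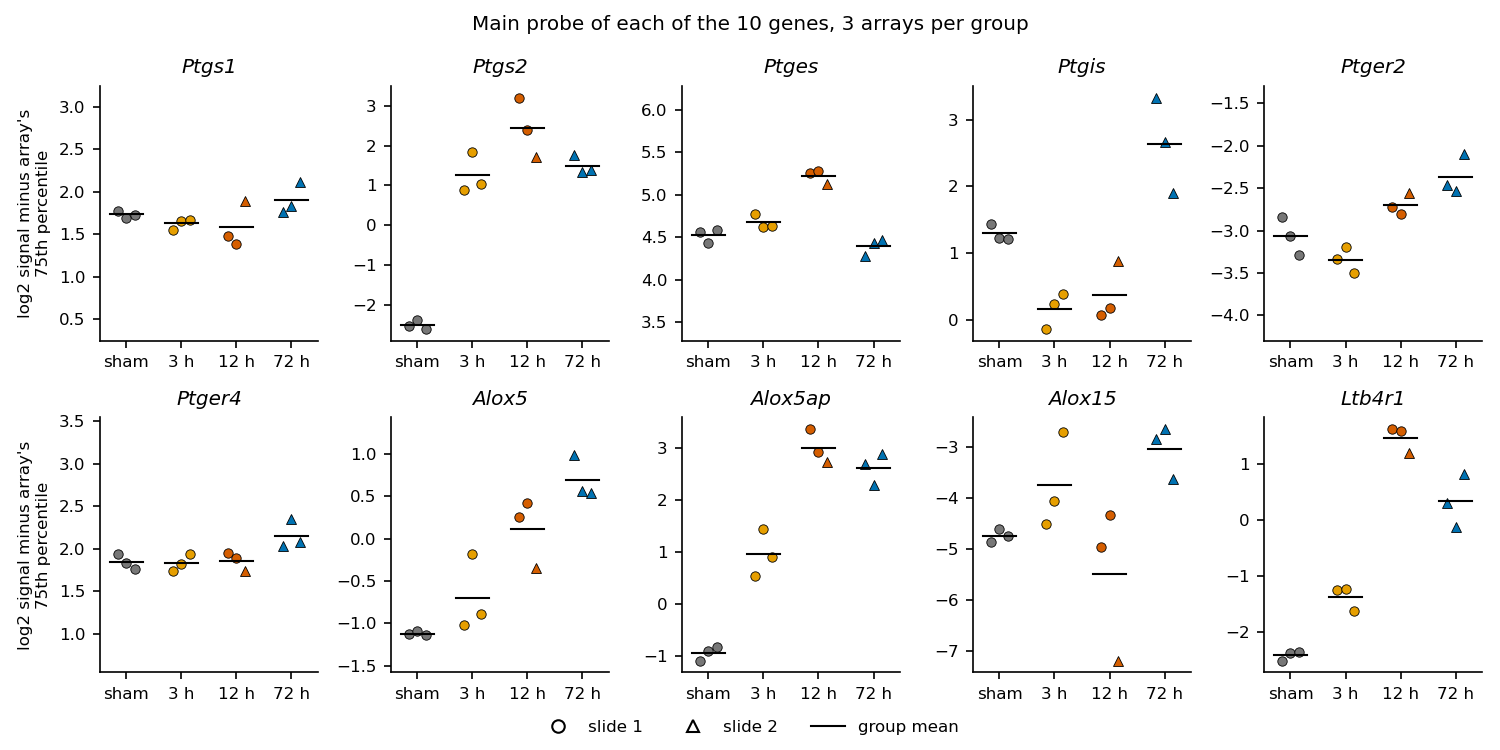
Level of the main probe of each of the 10 genes (y axis, log2 signal minus the 75th percentile of the array) in the sham, 3 h, 12 h and 72 h groups (x axis). Each point is 1 of 3 arrays, circles are the first slide and triangles the second, bars are group means, and the y axes differ between panels. Ptgs2, Alox5ap and Ltb4r1 lie above sham on all arrays at each time, and 1 array of Alox15 at 12 h lies at -7.20.

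Sequences are shown for the promoters of genes that rose and for the probes whose readings differed. RefSeq promoters (build GRCm38.p6, table of 32851) were matched for 7 of the 10 genes. Printed are the 250 bases before the annotated start, on the strand of the gene, of Ptgs2 (chr1:150099781-150100030, plus strand) and Ltb4r1 (chr14:55765712-55765961, plus strand), which were higher at all 3 times, and of Alox5 (chr6:116461179-116461428, minus strand), which alone held a match, set in capitals.
Ptgs2: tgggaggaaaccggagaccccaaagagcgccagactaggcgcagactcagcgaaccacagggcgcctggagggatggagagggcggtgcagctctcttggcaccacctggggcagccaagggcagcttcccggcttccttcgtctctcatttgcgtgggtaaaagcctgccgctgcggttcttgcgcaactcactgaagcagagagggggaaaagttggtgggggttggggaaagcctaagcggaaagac
Ltb4r1: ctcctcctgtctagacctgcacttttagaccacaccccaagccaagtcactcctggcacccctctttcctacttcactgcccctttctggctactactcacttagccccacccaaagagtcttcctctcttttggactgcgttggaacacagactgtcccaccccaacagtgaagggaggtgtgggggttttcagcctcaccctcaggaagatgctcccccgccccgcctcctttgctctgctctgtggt
Alox5: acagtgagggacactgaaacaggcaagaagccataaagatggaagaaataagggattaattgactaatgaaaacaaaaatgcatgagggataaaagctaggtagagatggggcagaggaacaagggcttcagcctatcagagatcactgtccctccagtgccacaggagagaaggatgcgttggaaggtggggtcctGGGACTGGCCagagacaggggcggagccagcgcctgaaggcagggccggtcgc
The motifs searched on both strands were the NF-kB core (GGGA and CC with any 4 bases between), the CRE core TGACGT, AP-1 as TGANTCA and the TATA box TATAAA. Within 250 bases they were held by 17.6%, 6.47%, 6.75% and 12.4% of all promoters. Among the 7 promoters 1 match was found, an NF-kB core on the plus strand of the gene in Alox5, 53 to 44 bases before the start. A match is a description of letters, and the absence of a match says only that these letters are not in this window.

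Cyclooxygenase transcripts differed in how they moved. Ptgs2 encodes cyclooxygenase-2, the inducible enzyme of injury and inflammation, and its 1 probe (chr1:151954744-151954803 of mm9, plus strand) had the largest fold change of the main probes of the 10 genes at each time. The sham arrays were at -2.51, -2.37 and -2.60, the 3 h arrays at 0.89, 1.83 and 1.05, the 12 h arrays at 3.20, 2.39 and 1.72, and the 72 h arrays at 1.76, 1.34 and 1.38. Every array after cauterization lay above every sham array, while the 3 later groups overlapped each other. The log2 fold changes against sham were 3.75, 4.93 and 3.99 at 3, 12 and 72 h (SE 0.35), or 13.4-fold, 30.5-fold and 15.9-fold, and limma gave adjusted p-values of 0.000137, 2.03e-05 and 8.1e-05. The highest mean, at 12 h, exceeded that at 3 h without being called (difference 1.18, 95% confidence interval 0.41 to 1.96, limma adjusted p = 0.0646) and the change from 12 to 72 h was not called (-0.94, limma adjusted p = 0.0948). Both intervals also hold differences above 2-fold. Without 12 h replicate 3, which was the lowest of its group, both were called, with 1.54 (limma adjusted p = 0.0295) and -1.30 (limma adjusted p = 0.0224). The difference from 3 to 12 h was called in 6 of 28 alternatives in all, among them normexp (limma adjusted p = 0.0104). Slide as a block, also among them, gave the same 1.54, since among sham, 3 h and 12 h it only sets 12 h replicate 3 aside.

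Ptgs1 encodes cyclooxygenase-1, the form most cells make all the time. Its main probe (chr2:36107644-36107703, plus strand) was at 1.78, 1.70 and 1.73 on the sham arrays, 1.56, 1.66 and 1.67 on the 3 h arrays, 1.48, 1.38 and 1.89 on the 12 h arrays and 1.76, 1.84 and 2.11 on the 72 h arrays. Only the 3 h arrays did not overlap sham, by a small margin. The 95% confidence intervals of the log2 change, -0.43 to 0.22 at 3 h, -0.48 to 0.18 at 12 h and -0.16 to 0.49 at 72 h, held no 2-fold change. A much dimmer second probe, 10715 bases upstream and listed under another transcript, was lower at 12 h by a log2 change of -0.76 (limma adjusted p = 0.0128), short of 2-fold. Ptgs1 and Ptgs2 thus had log2 changes of -0.15 and 4.93 at 12 h.

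**Figure D2:**
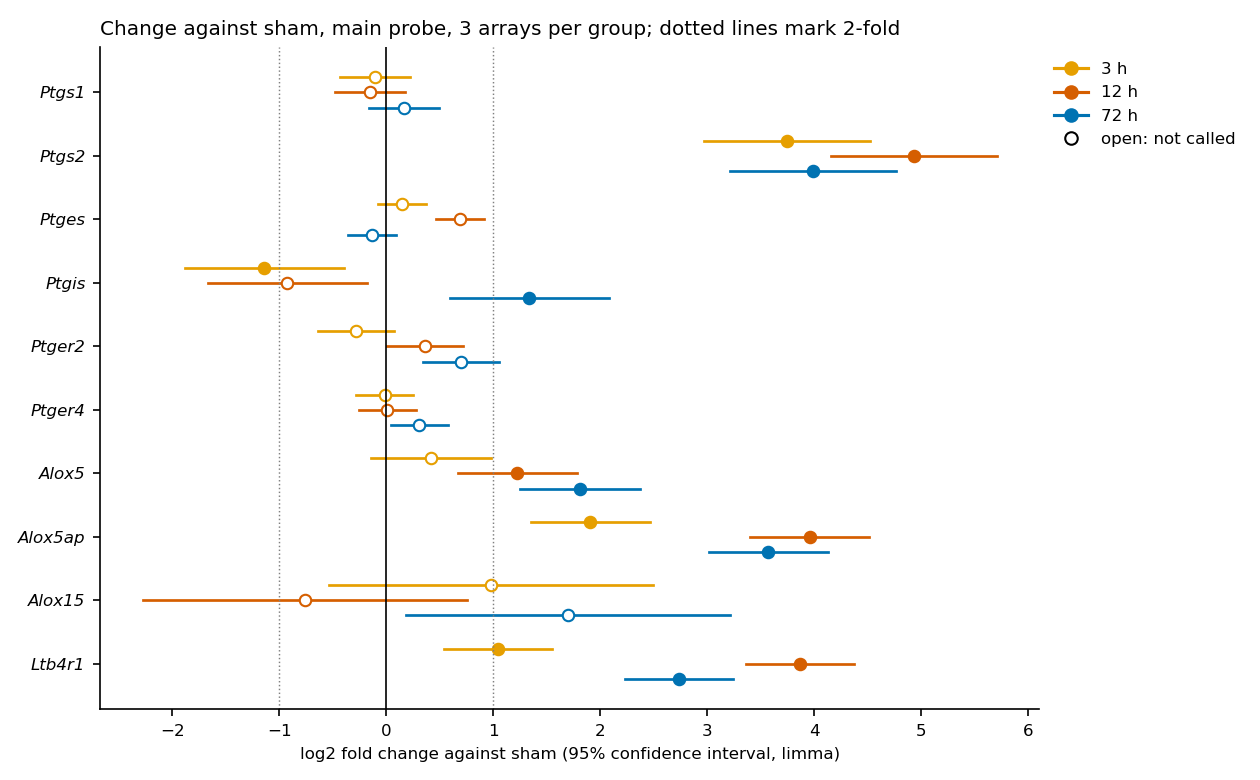
Log2 fold change against sham (x axis) of the main probe of each gene (y axis) at 3, 12 and 72 h, with 95% confidence intervals from limma, 3 arrays per group. Filled points were called, open points were not, and dotted lines mark a 2-fold change. The intervals of Ptgs1 stay within the dotted lines, those of Alox15 are the widest.

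Terminal synthases gave readings that depended on the probe. Ptges encodes the microsomal prostaglandin E synthase that is induced together with cyclooxygenase-2. Its brightest probe was at 4.56, 4.44 and 4.58 on the sham arrays, 4.77, 4.62 and 4.63 on the 3 h arrays, 5.25, 5.28 and 5.13 on the 12 h arrays and 4.29, 4.43 and 4.47 on the 72 h arrays. The 12 h arrays lay above all others, with a log2 fold change of 0.69 (SE 0.10, 1.62-fold, limma adjusted p = 0.00103), below the 2-fold limit, and the changes at 3 and 72 h were 0.15 and -0.13. Both dimmer probes were called higher at all 3 times. The second was at -2.41, -2.30 and -2.40 on the sham arrays, -0.78, -0.66 and -0.01 on the 3 h arrays, -0.08, -0.23 and -0.51 on the 12 h arrays and -0.29, -0.67 and 0.34 on the 72 h arrays. Its arrays after cauterization all lay above sham and overlapped each other. The folds were 3.70, 4.28 and 4.49 in order of time (limma adjusted p = 0.00115, 0.000455 and 0.000548). The last probe had sham arrays at -3.04, -2.97 and -3.45 and rose 2.47-fold, 2.85-fold and 2.75-fold (limma adjusted p = 0.00428, 0.00153 and 0.00233). Averaged over its 3 probes, Ptges was called at all 3 times, with log2 changes of 1.11, 1.43 and 1.17. The array thus gives Ptges different readings by probe.

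The last 30 bases of the 3 Ptges probes, as the array design lists them, are printed because of this split. Capitals mark the hexamers AATAAA or ATTAAA, which can serve as polyadenylation signals and were searched on the listed strand. In mm9 coordinates, on the minus strand, the probes lie at chr2:30744995-30745054 (brightest), chr2:30747838-30747897 (second) and chr2:30748214-30748273 (last), so that the brightest lies 2843 bases further downstream than the second.
Ptges brightest: agtcagccccaATTAAAtgctttcctttat
Ptges second: gaggacatccttcacctcacaaaatgcctt
Ptges last: gttgtcctcacaggccgtgtggtacacacc
Of the 18 probes of the 10 genes 4 held such a hexamer, and of all probes 13.4% did. Exons were not assigned, since no mm9 annotation was used here.

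Ptgis encodes prostacyclin synthase, which makes the vasodilator prostacyclin mainly in vessel walls. Its main probe was at 1.44, 1.23 and 1.22 on the sham arrays, -0.15, 0.23 and 0.38 on the 3 h arrays, 0.07, 0.17 and 0.87 on the 12 h arrays and 3.33, 2.67 and 1.90 on the 72 h arrays. All 3 h and 12 h arrays lay below sham and all 72 h arrays above it. The log2 fold changes were -1.14, -0.92 and 1.34 in order of time (SE 0.33), with limma adjusted p-values of 0.0395, 0.0778 and 0.0187, so that the fall at 3 h and the 2.53-fold rise at 72 h were called. From 12 to 72 h the difference was 2.26 (limma adjusted p = 0.00182). The second probe moved alike (-1.07, -0.76 and 1.61), with only the rise at 72 h called (limma adjusted p = 0.0143). The last, listed under another transcript and 11379 bases downstream of the main one, was called in no comparison, and its changes were -0.05, -0.12 and -0.06. The calls against sham lay near the threshold. That at 3 h was lost in 13 of 28 alternatives, among them leaving out any single sham or 3 h array, 12 h replicate 2 or 72 h replicate 2 (-1.25 to -0.99). That at 72 h was lost in 9 of 27, among them leaving out sham replicate 2 or 3, 72 h replicate 1 (0.99) or 72 h replicate 2, and slide as a block, which gave 0.59 (limma adjusted p = 0.572). Without 12 h replicate 3 the fall at 12 h was called (-1.17, limma adjusted p = 0.0428). Within the second slide, the difference between the 72 h arrays and 12 h replicate 3 was 1.76, from a fit with 1 array at 12 h that called 16 of all genes.

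The probes of Ptgis lie on chromosome 2 of mm9, minus strand, at chr2:167028696-167028755 (main), chr2:167032305-167032364 (second) and chr2:167017317-167017376 (last). Their last 30 bases are given for the same reason.
Ptgis main: aagctAATAAAagctctgtatctcgctgtg
Ptgis second: ttttacaaagatgggaaacggctgaagaat
Ptgis last: cattctggtcagtcctcctacatcaattaa
Markers of fibroblasts, like Ptgis, had lower values at 3 and 12 h than in sham and the highest at 72 h. Ptgis had its lowest mean at 3 h, whereas the summed signal of the fibroblast markers was lowest at 12 h. Of 6 such genes 0 were called at 3 h, 4 lower at 12 h and 5 higher at 72 h, and their summed signal was 111 to 122 in sham, 72.2 to 88.9 at 3 h, 62.7 to 68.1 at 12 h and 289 to 654 at 72 h, in units of the 75th percentile of the array. All 6 were above background on all arrays. Of 6 smooth muscle markers 1, 6 and 6 were called lower in order of time and 0 higher, with sums of 363 to 393 in sham and 134 to 176 at 72 h. Of 6 endothelial markers 2 were called, both higher at 72 h, with sums of 5.33 to 6.09 in sham and 5.16 to 11.7 at 72 h. Of 8 mesothelial markers 3, 3 and 0 were called lower and 1, 1 and 3 higher in order of time. Their median log2 changes were -0.79, -0.45 and 0.45, and 2 of the 8 were above background on 0 arrays at 3 h and at 12 h. The sum, which the brightest markers lead, went the other way, with 156 to 186 in sham, 230 to 256 at 3 h and 113 to 151 at 72 h. In bulk tissue fewer cells of a type and less RNA per cell cannot be told apart, and the part of these cells in the values of Ptgis was not tested.

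**Figure D3:**
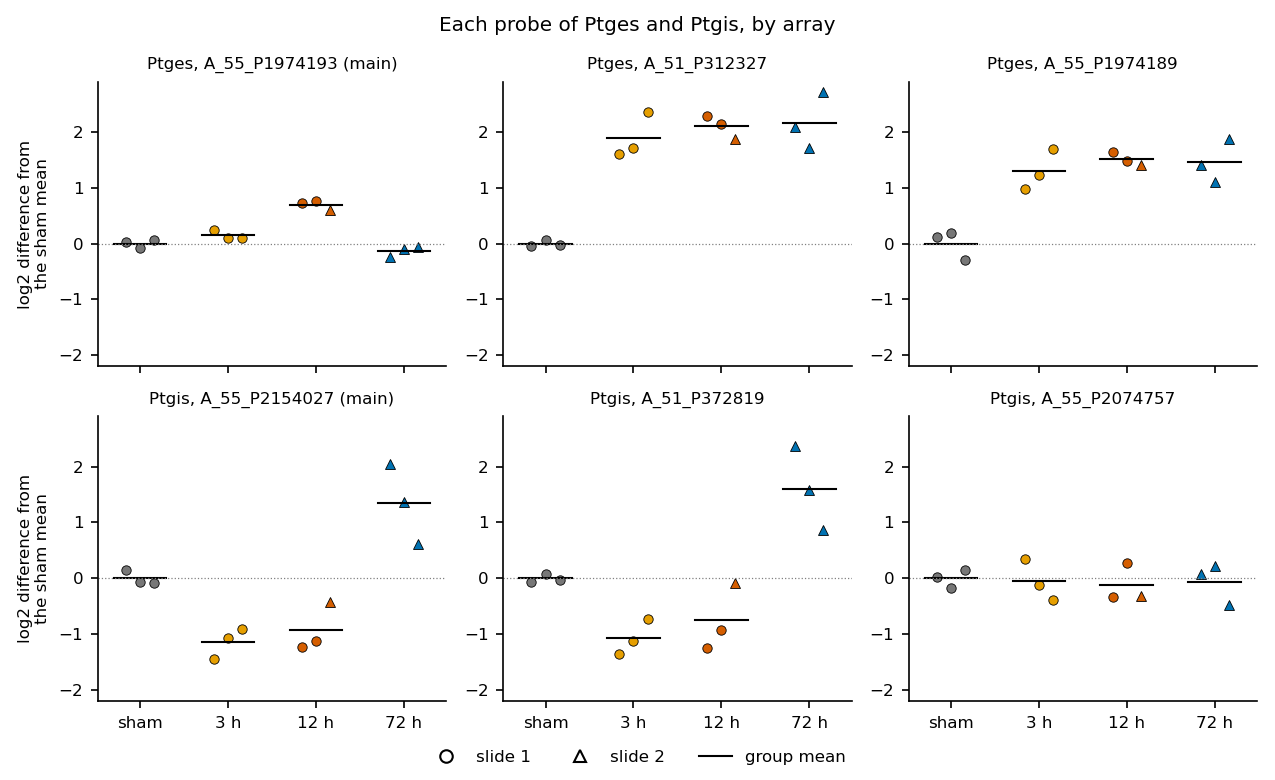
Difference of each array from the sham mean of the same probe (y axis, log2) for the 3 probes of Ptges (top, from left the brightest, second and last) and of Ptgis (bottom, main, second and last) in the 4 groups (x axis), with circles for the first slide, triangles for the second and bars for group means. The 2 dimmer probes of Ptges lie above sham on all arrays after cauterization, while its main probe stays within 1 of the sham mean.

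The receptors Ptger2 and Ptger4 changed by less than 2-fold against sham at their main probes. Ptger2 (chr14:45622004-45622063, plus strand) and Ptger4 (main probe chr15:5183422-5183481, minus strand) encode the prostaglandin E2 receptors EP2 and EP4, both of which raise cyclic AMP. Ptger2 was at -2.84, -3.06 and -3.29 on the sham arrays, -3.33, -3.20 and -3.50 on the 3 h arrays, -2.72, -2.80 and -2.56 on the 12 h arrays and -2.46, -2.54 and -2.10 on the 72 h arrays. The 12 h and 72 h arrays lay above sham and 3 h, and the 3 h arrays overlapped sham. Against sham the log2 change at 72 h was 0.70 (SE 0.16, 1.62-fold, limma adjusted p = 0.0127), and against 3 h it was 0.98 (limma adjusted p = 0.00155), both under the limit. Without 3 h replicate 2, 72 h replicate 1 or 72 h replicate 2 the difference from 3 h was 1.05, 1.03 and 1.06, and was called. Ptger4 ranged from 1.76 to 1.94 in sham and from 2.03 to 2.35 at 72 h, a log2 change of 0.31 (limma adjusted p = 0.0983), with changes of -0.01 and 0.01 at 3 and 12 h. Its second probe gave 0.40 at 72 h (limma adjusted p = 0.0423), and the last, 26748 bases downstream of the main one, was above background on 0 arrays.

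In the 5-lipoxygenase pair, Alox5ap was called from 3 h on and Alox5 from 12 h on. Alox5ap encodes the membrane protein that presents arachidonic acid to 5-lipoxygenase (chr5:150099347-150099406, plus strand). It was at -1.10, -0.90 and -0.83 on the sham arrays, 0.54, 1.44 and 0.91 on the 3 h arrays, 3.37, 2.92 and 2.75 on the 12 h arrays and 2.70, 2.30 and 2.89 on the 72 h arrays. The sham, 3 h and 12 h arrays formed 3 steps without overlap, and the 72 h arrays overlapped those at 12 h. The log2 fold changes in order of time were 1.91, 3.96 and 3.57 (SE 0.25), that is 3.75-fold, 15.5-fold and 11.9-fold, with limma adjusted p-values of 0.000814, 1.14e-05 and 2.47e-05. The step from 3 to 12 h was 2.05 (limma adjusted p = 0.00201). A second probe gave 1.99, 4.09 and 3.78.

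Alox5 encodes 5-lipoxygenase itself, the enzyme of white blood cells that starts leukotriene synthesis (chr6:116360326-116360385, minus strand). It was at -1.13, -1.09 and -1.14 on the sham arrays, -1.02, -0.19 and -0.89 on the 3 h arrays, 0.26, 0.41 and -0.35 on the 12 h arrays and 0.99, 0.56 and 0.53 on the 72 h arrays. The 72 h arrays lay above all others, and 12 h replicate 3 fell within the range at 3 h. The log2 fold change at 3 h, 0.42, was not called (95% confidence interval -0.14 to 0.98, limma adjusted p = 0.264). Those at 12 and 72 h were 1.23 and 1.81 (SE 0.25), or 2.34-fold and 3.51-fold, with limma adjusted p-values of 0.00648 and 0.00106. At 72 h it exceeded the 3 h level by 1.39 (limma adjusted p = 0.00259), whereas the step from 12 to 72 h of 0.59 was not called (limma adjusted p = 0.143). That from 3 to 12 h, 0.81, was not called either (limma adjusted p = 0.0776), but it was without 3 h replicate 2 (1.06) or 12 h replicate 3 (1.03).

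Ltb4r1 encodes BLT1, the high-affinity receptor by which neutrophils follow leukotriene B4 (chr14:56387175-56387234, plus strand). It was at -2.51, -2.36 and -2.36 on the sham arrays, -1.25, -1.23 and -1.62 on the 3 h arrays, 1.61, 1.58 and 1.18 on the 12 h arrays and 0.30, -0.14 and 0.82 on the 72 h arrays. The 4 groups did not overlap, with the order sham, 3 h, 72 h and 12 h. Fold changes on the log2 scale were 1.04, 3.87 and 2.74 at 3, 12 and 72 h (SE 0.23), or 2.06-fold, 14.6-fold and 6.67-fold, and the limma adjusted p-values were 0.0107, 8.56e-06 and 6.08e-05. All steps between times were called, namely a rise of 2.83 from 3 to 12 h (limma adjusted p = 0.000553) and a change of -1.13 from 12 to 72 h (limma adjusted p = 0.00802). The 3 h value lay close to the limit and lost its call in 7 of 28 alternatives, among them leaving out sham replicate 1 (0.99), 3 h replicate 1 (0.98) or 3 h replicate 2 (0.97). Within the second slide, the difference between the 72 h arrays and 12 h replicate 3, 1 array, was -0.85, and without 72 h replicate 2 the last step was -0.90.

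Between the times, 2 of the 10 genes were called higher and 0 lower at 12 h than at 3 h, where 3.46% of all genes were called, 1.86% higher and 1.6% lower. At 72 h against 12 h 2 were higher and 1 lower, beside 7.43% of all genes, 4.49% higher and 2.94% lower. At 72 h against 3 h 4 were higher and 0 lower, beside 11.5% of all genes, 6.26% higher and 5.25% lower. Of the genes well above background in a group, 4.88%, 9.94% and 15.3% were called in the same order. The 4 were Ptgis, Alox5, Alox5ap and Ltb4r1. The 3 h and 72 h arrays share no slide, and with slide as a block Ptgis lost this call (1.72, limma adjusted p = 0.0921), while Alox5, Alox5ap and Ltb4r1 had 2.08, 2.06 and 2.11 and were called. For Ptgs2 the 72 h and 3 h means differed by 0.24 (95% confidence interval -0.53 to 1.02).

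Lists of white blood cell markers differed in how they moved. Of 12 neutrophil markers 7, 10 and 8 were called higher at 3, 12 and 72 h, and their summed signal was 56.5 to 64.7 in sham, 246 to 415 at 3 h, 566 to 590 at 12 h and 243 to 442 at 72 h. In sham 3 of the 12, Cxcr2, Ltf and Ngp, were above background on 0 arrays. Of 10 monocyte and macrophage markers 0 were called higher and 1 lower at 3 h, 4 higher at 12 h and 8 higher at 72 h, with sums of 94.5 to 108, 81.7 to 173, 143 to 159 and 260 to 277 in the same order. Of 5 B cell and 6 T cell markers 0 were called at any time against sham. Their median log2 changes in order of time were -1.68, -0.13 and -1.25 for B cells and -0.20, 0.14 and -0.35 for T cells. The neutrophil sum thus had its highest values at 12 h, as Alox5ap and Ltb4r1 had, and the macrophage sum at 72 h, as Alox5 had. The part of these cells in the values of Ptgs2, Alox5, Alox5ap and Ltb4r1 was not tested.

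Over the 12 arrays, Alox5ap and Ltb4r1 had a Pearson correlation of 0.957, Ptgs2 and Alox5ap of 0.931, and Alox5 and Alox5ap of 0.871, as a description of arrays that share groups, slides and scaling. Among 23806 genes the most alike were Osm (0.989), Gp49a (0.989) and Cxcl3 (0.986) for Ptgs2, Plekho2 (0.994), Emilin2 (0.994) and Pira2 (0.992) for Alox5ap, and Nfe2 (0.988), Eif4ebp1 (0.987) and Pilra (0.981) for Ltb4r1. For Alox5 they were Sepn1 (0.978), Cd300ld (0.960) and Runx2os1 (0.960), and for Ptgis Nlgn2 (0.988), Fbn1 (0.988) and Cxx1c (0.985). With Ptges, Oas1b (0.986) came first. The share of genes with a correlation above 0.9 was 2.61% for Ptgis, 1.56% for Alox5ap and 1.42% for Ptgs2, so that such values were not rare for them, but 0.0042% for Ptgs1 and Ptger4.

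Alox15 encodes 12/15-lipoxygenase, an enzyme of resident peritoneal macrophages and eosinophils whose products include precursors of resolving lipids. Its 1 probe (chr11:70159115-70159339, minus strand) was above background on 3, 3, 2 and 3 arrays in order of group. It was at -4.87, -4.60 and -4.74 on the sham arrays, -4.51, -4.05 and -2.70 on the 3 h arrays, -4.96, -4.32 and -7.20 on the 12 h arrays and -2.84, -2.64 and -3.62 on the 72 h arrays. All 72 h arrays lay above sham, and 12 h replicate 3, the array not above background, lay far below the rest. The log2 changes against sham of 0.98, -0.76 and 1.70 were not called (limma adjusted p = 0.331, 0.504 and 0.11), and the moderated F-test gave a limma adjusted p = 0.0545. From 12 to 72 h the fitted difference of 2.46 was called (limma adjusted p = 0.0328), but 10 of 28 alternatives lost it. With slide as a block it was 4.17 (limma adjusted p = 0.0106), and the 72 h change against sham was 4.26 and was called (limma adjusted p = 0.0274). Both of these values rest on 12 h replicate 3, which alone links the slides and was not above background for this probe. Without 12 h replicate 3 the difference from 12 to 72 h was 1.61 (limma adjusted p = 0.0551), while the 72 h change against sham, 1.70, then was called (limma adjusted p = 0.0258). Without 12 h replicate 1, 72 h replicate 1 or 72 h replicate 2 the difference from 12 to 72 h was 2.73, 2.37 and 2.26 and was not called.

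Among the genes whose pattern was most like that of Alox15 were Fcna (Pearson correlation 0.904 over 12 arrays), a ficolin of macrophages, and Cpa3 (0.899), the carboxypeptidase of mast cells. Cpa3 was at -2.56, -2.83 and -2.77 on the sham arrays, -2.43, -1.87 and -0.55 on the 3 h arrays, -2.53, -2.64 and -3.33 on the 12 h arrays and -0.45, -0.87 and -1.75 on the 72 h arrays. Its highest 3 h array was replicate 3 and its lowest 12 h array replicate 3, as for Alox15. The likeness comes from the choice of these genes by their correlation on the same arrays and is a description. Of 8 markers of large peritoneal macrophages 2, 1 and 4 were called higher and 0, 1 and 0 lower at 3, 12 and 72 h, with sums of 5.67 to 6.4 in sham, 5.44 to 11.7 at 3 h, 4.82 to 6.48 at 12 h and 7.4 to 14.7 at 72 h. Vsig4 among them was above background on 0 arrays before 72 h. Of 10 mast cell markers 2, 1 and 4 were called higher and 0, 1 and 0 lower. Their sums were 3.06 to 3.7, 5.64 to 11.9, 17.1 to 25.7 and 10.6 to 14 in order of group. This sum was highest at 12 h, whereas the 12 h arrays of Cpa3 lay below all of its 72 h arrays. Among the 10 markers, Hdc, histidine decarboxylase, had the largest log2 changes, 6.70, 8.52 and 7.38. The median log2 changes of the 10 were 0.51, 0.28 and 0.98 in order of time, highest at 72 h. The time of the highest sum is thus not that of most of these markers. Of 6 eosinophil markers 0 were called, with sums of 0.501 to 0.574 in sham and 0.916 to 1.14 at 72 h, and the defining Epx was above background on 0 arrays. The part of these cells in the values of Alox15 was not tested.

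**Figure D4:**
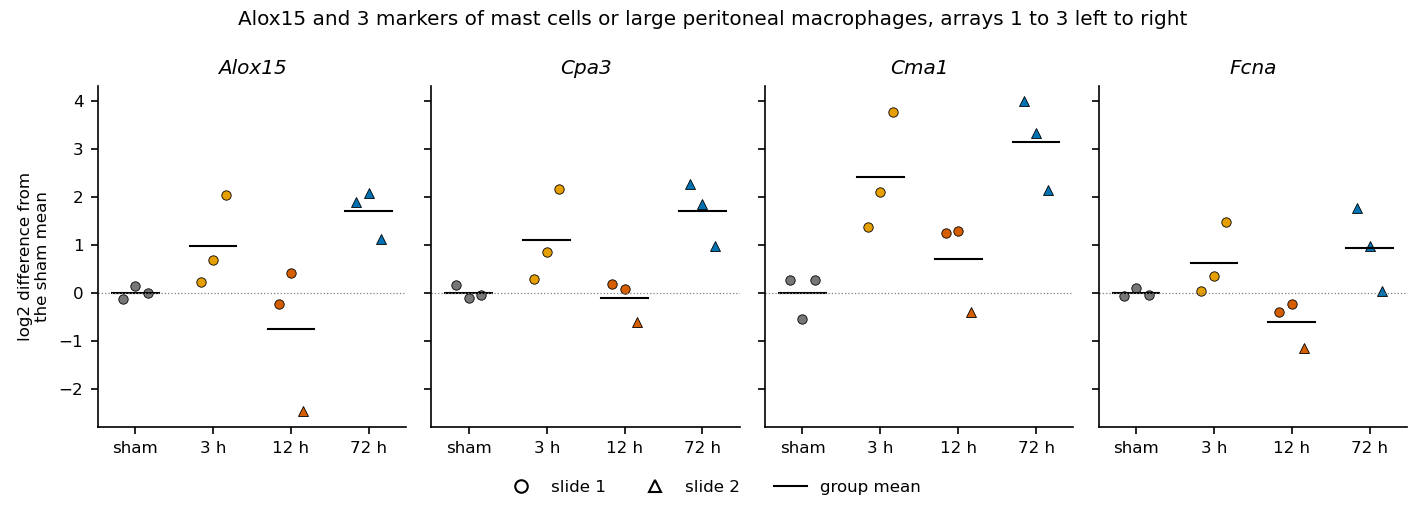
Difference of each array from the sham mean of the same probe (y axis, log2) for Alox15, the mast cell markers Cpa3 and Cma1 and the macrophage marker Fcna in the 4 groups (x axis). Arrays 1 to 3 run from left to right within a group, circles are the first slide, triangles the second, and bars are group means. In each panel array 3 is the highest of the 3 h group and the lowest of the 12 h group, and Cpa3, Cma1 and Fcna were chosen with these values known. The summed signal of the 10 mast cell markers was highest at 12 h (17.1 to 25.7), unlike Cpa3. Their median log2 change against sham was highest at 72 h (0.98, beside 0.28 at 12 h).

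Around the 10 genes, 52 other genes of the pathway, read by 85 probes, were measured. At 3 h 3 of them were called higher and 3 lower, at 12 h 6 higher and 5 lower, and at 72 h 12 higher and 4 lower, which made 24 called at any time. The shares called, 11.5%, 21.2% and 30.8%, stand beside 7.47%, 9.28% and 8.9% of all genes. Of the 52 genes 47 were well above background in a group, and of all such genes 10.4%, 12.8% and 11.6% were called. At 3 h the share thus lay near that of such genes. The median log2 changes of the 52 were -0.06, 0.00 and 0.11.

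Among 12 phospholipases A2, which free arachidonic acid, 0 were called at 3 h, 2 higher at 12 h and 2 higher at 72 h. These were Pla2g5 (2.05) and Pla2g4f (1.76) at 12 h and Pla2g2a (2.94) and Pla2g2f (1.81) at 72 h, all as log2 fold changes against sham. The C57BL/6 strain is known to carry a defective Pla2g2a gene, so that a transcript there need not give enzyme. Cytosolic Pla2g4a, the main supplier for cyclooxygenases, had 0.61 at 72 h and was not called.

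Of 8 other genes of prostanoid synthesis, Tbxas1, thromboxane synthase, changed direction, being lower at 3 h by a log2 change of -1.10 (limma adjusted p = 0.000159) and higher at 72 h by 1.82 (limma adjusted p = 1.05e-05). Its sham arrays were at -1.49, -1.53 and -1.48, those of 3 h at -2.50, -2.58 and -2.73 and those of 72 h at 0.30, 0.33 and 0.32, without overlap. Prxl2b, a prostaglandin F synthase, was lower at 12 h (-1.06). Of 5 genes of transport and breakdown 1 was called, the prostaglandin carrier Slco2a1, lower at 72 h (-1.08), and Hpgd, which inactivates prostaglandins, was not. The other probes of Slco2a1 differed, since at 72 h they gave -0.45, -0.33 and -1.80, of which only the last was called, and this last probe, above background on 7 arrays, was called higher at 3 h (1.70, limma adjusted p = 0.0258). Of 7 other prostanoid receptors, the thromboxane receptor Tbxa2r was lower at 3 h (-2.18), the prostacyclin receptor Ptgir higher at 12 h (1.33) and the E-type receptor Ptger3 higher at 72 h (1.77). Ptgfr, the receptor of prostaglandin F, was above background on 0 sham arrays and all 72 h arrays, and was at least 4.0-fold higher at 72 h, where each sham array was set to its dimmest signal that was well above background, unless the probe itself was brighter.

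Of 8 other lipoxygenases and leukotriene synthases, Aloxe3, which acts in the skin barrier, was higher at 3 h (2.84) and 12 h (2.50) and at 0.01 at 72 h, while Alox12, the platelet-type enzyme, was lower at 3 h (-1.43) and 12 h (-1.76). Ltc4s, which makes leukotriene C4, was higher at 72 h (1.27, limma adjusted p = 0.0468) with 72 h replicate 3 at -0.06, near the sham arrays at -0.14, -0.19 and -0.11. Mgst2 was lower at 12 h (-1.05). Alox12e, above background on 0 sham arrays, was at least 1.56-fold higher at 72 h. Lta4h, which makes leukotriene B4, was not called at any time at its main probe, and its second probe was lower at 3 h (-1.22, limma adjusted p = 0.00146).

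Of 7 genes of leukotriene export and breakdown, Cyp4f18, which degrades leukotriene B4 in neutrophils, was called higher at all 3 times (1.78, 3.50 and 2.71), Dpep2 (2.54) and Ggt5 (1.51) were higher at 72 h, and Cyp4f14 (-1.24 and -2.22 at 12 and 72 h), Dpep1 (-1.11 and -1.99) and Ggt1 (-1.29 at 72 h) were lower. Dpep1 and Dpep2 both cleave leukotriene D4 and moved in opposite directions at 72 h. Of 10 epithelial markers 3 were called lower at 72 h, with sums of 1140 to 1210 in sham and 562 to 756 at 72 h, and their part in the lower values was not tested. Of 5 receptors, Fpr2, a receptor of formyl peptides and lipoxin A4, was higher at all 3 times (4.52, 6.13 and 5.26), and Cysltr1, the receptor of leukotriene D4, at 72 h (1.32). Second probes of Pla2g5, Ptgfr, Dpep2, Cyp4f18 and Fpr2 were called in the same direction at the times given for the main probe. For Ggt5 the other probes gave 0.30, not called, and 1.22, called, at 72 h, and for Ptger3 the second probe gave 1.21, not called. The other probes of Tbxas1, Alox12 and Alox12e were above background on 0 arrays. Leaving out single arrays ended the calls of Pla2g5, Prxl2b, Mgst2 and Dpep1 at 12 h in 3, 3, 2 and 1 of 12 fits, and those of Ptger3, Slco2a1, Alox12e, Ltc4s and Ggt1 at 72 h in 1, 1, 9, 11 and 9 of 12. With slide as a block 4 of the 52 genes were called at 72 h instead of 16, and over all genes 1148 instead of 3300.

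**Figure D5:**
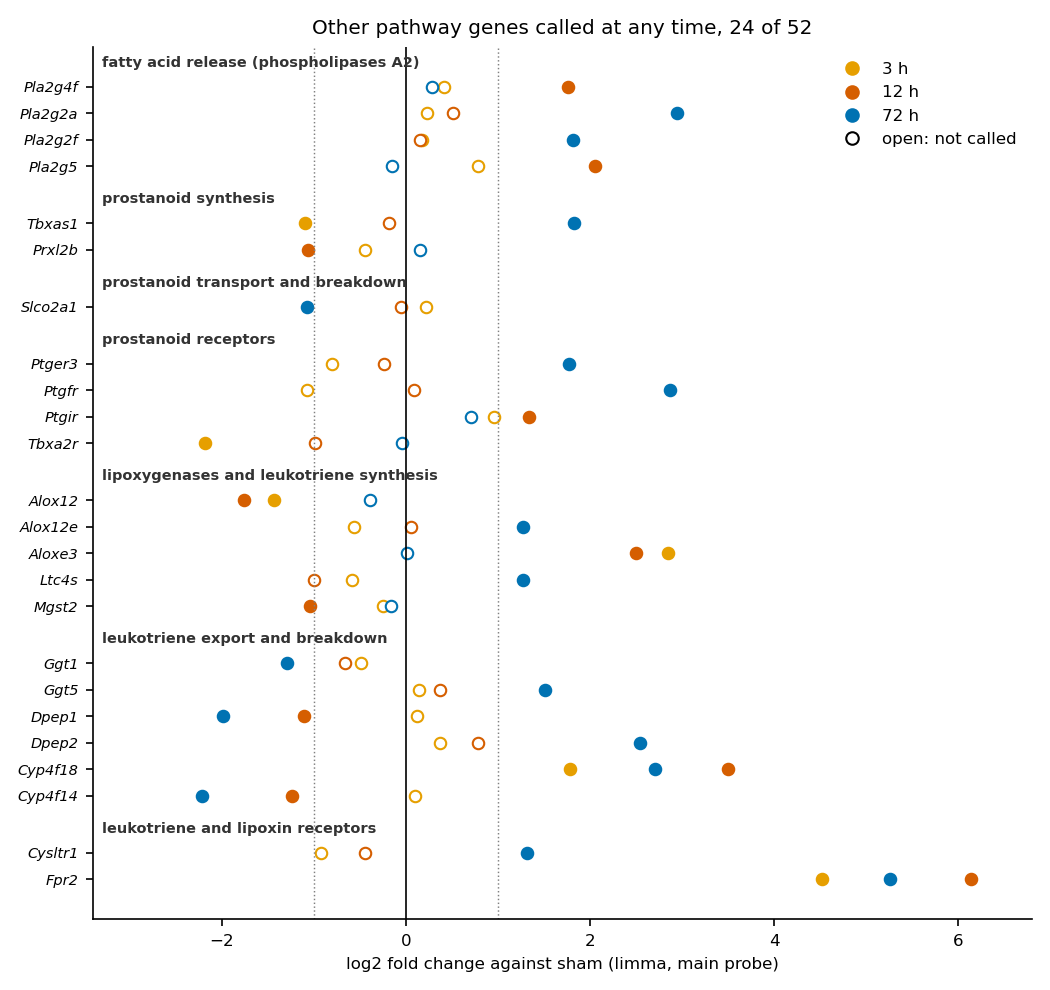
Log2 fold change against sham (x axis) of the 24 of 52 other pathway genes that were called at any time, by role (y axis), at 3, 12 and 72 h. Filled points were called and open points were not, dotted lines mark a 2-fold change, and the fitted values of Ptgfr and Alox12e rest on sham arrays not above background. Fpr2 and Cyp4f18 are the genes with 3 filled points.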

How the data were processed

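Total RNA of 12 cecum samples was measured on 1-colour Agilent SurePrint G3 Mouse GE v2 arrays. The authors deposited the scanner output, with background-corrected intensity per spot from Agilent Feature Extraction 11.5.1.1, not normalized between arrays. A second table of theirs, deposited as log2 values that GeneSpring had scaled to the 75th percentile, had a correlation of 0.9995 with the values used here after centring. Samples were grouped by their titles.

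Control spots (3671 of 62976 per array) and outlier spots (53 to 152) were left out, spots of a probe were averaged, the intensity was taken to log2, each array's 75th percentile over non-control probes was subtracted, and 4 group means were fitted to all 12 arrays by limma 3.58.1 under R 4.3.3 with lmFit, contrasts.fit and eBayes. The fit was tested on simulated data. Probe coordinates are those of mm9, and gene names those of the array design. No protein sequences were used here.

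The 10 genes, the lists and the markers were chosen with earlier results of these data known. Named are all 10 genes with every probe, members of the pathway list called at any time, defining markers, and the 3 genes with the highest correlation to a main probe, of which some are left out. Cma1 and Pla2g4a, Hpgd and Lta4h were named after their values were seen. Alternatives were quantile normalization, other percentiles, normexp with an offset of 50, the deposited log2 table, outliers kept, dim probes filtered out or set to a floor, slide and replicate blocks, fits within slides, other variance models, the methods' t-test, the mean of all probes, other thresholds, treat, and leaving out each array. Replicate numbers did not pair the arrays.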

Additional observations from a re-analysis of the deposited data

Results flagged for a closer look

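Effects against sham that differed between time points, by a test of the difference itself with limma, were found in 9 values of 5 genes. From 3 to 12 h the difference was 2.05 for Alox5ap (limma adjusted p = 0.00201) and 2.83 for Ltb4r1 (limma adjusted p = 0.000553). From 12 to 72 h it was 2.26 for Ptgis (limma adjusted p = 0.00182), 2.46 for Alox15 (limma adjusted p = 0.0328) and -1.13 for Ltb4r1 (limma adjusted p = 0.00802). From 3 to 72 h it was 2.48 for Ptgis (limma adjusted p = 0.000578), 1.39 for Alox5 (limma adjusted p = 0.00259), 1.66 for Alox5ap (limma adjusted p = 0.001) and 1.70 for Ltb4r1 (limma adjusted p = 0.000554). The value of Alox15 rests on 12 h replicate 3, without which it was 1.61 and not called. The values up to 72 h lie largely or wholly across slides. With slide as a block those of Ptgis and Ltb4r1 from 12 to 72 h were 1.76 and -0.85 and not called, and that of Ptgis from 3 to 72 h was 1.72 and not called. That of Alox15 was then 4.17 and called (limma adjusted p = 0.0106), but it too rests on 12 h replicate 3, which was not above background. With 3 arrays per group, single distant arrays were not searched for.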

How the results depend on the processing

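Over 1660 values of the 10 genes under alternatives, 1557 kept their side of the threshold, 73 lost a call, 35 of them under the methods' t-test or treat, 29 gained one and 1 reversed. The reversed value was Ptges at 72 h with the mean of all probes (1.17), since its probes differ, and among the other pathway genes Alox12e at 72 h with normexp (-0.12). With the methods' t-test, paired by replicate number, 0 of the 10 genes passed in each of the 6 comparisons and 0 of the 52 other genes in the 3 with sham, and at an unadjusted p under 0.05 it gave 4, 5, 5, 3, 3 and 2 of the 10 genes, in the order 3, 12 and 72 h against sham, 3 to 12, 12 to 72 and 3 to 72 h. Over all 37074 genes it called 0, 2, 0, 0, 0 and 0 past the fold threshold, and 6767, 8064, 8356, 5609, 6662 and 13751 had an unadjusted p under 0.05, so that its count of 0 is no statement about these genes. With treat against 2-fold, 1 of the 10 genes was called at 3 h, 3 at 72 h, 1 from 3 to 12 h, 0 from 12 to 72 h and 1 from 3 to 72 h, and 3, 3 and 5 of the other genes. Of all genes treat called 366, 727 and 527 at 3, 12 and 72 h. Between times it called 13, 245 and 572 of all genes, from 3 to 12, 12 to 72 and 3 to 72 h. With slide as a block, 4 of the 10 genes were called from 3 to 12 h and 1 from 12 to 72 h, beside 902 and 1221 of all genes. At 72 h this block left 4 of the other genes called, beside 1148 of all genes. With no fold threshold, 4 of the 10 genes were called from 3 to 12 h, beside 3381 of all 37074 genes. Of the 52 other genes 11 and 20 were then called at 3 and 12 h, beside 6942 and 8009 of all genes. With normexp the other genes called were 2, 5 and 10 at 3, 12 and 72 h, beside 830, 1349 and 1260 of all genes. The causes were not tested. Leaving out each array gave 2 to 4 of the 10 genes at 3 h, 4 to 5 at 12 h, 4 to 6 at 72 h, 2 to 4 from 3 to 12 h, 1 to 3 from 12 to 72 h and 4 to 5 from 3 to 72 h, and 6 to 8, 9 to 13 and 11 to 16 of the other genes. At 3 h 2 were left without sham replicate 1, 3 h replicate 1 or 3 h replicate 2. From 3 to 12 h 4 were called without 12 h replicate 3, which for this comparison is the same fit as slide as a block. From 12 to 72 h 1 was called without 72 h replicate 2. As a replicate block, the replicate number left 3, 4 and 5 of the 10 genes called at 3, 12 and 72 h and 2, 2 and 4 between times, without Ptgis at 3 h (limma adjusted p = 0.0778) and Alox15 from 12 to 72 h (0.055). It is a shared number only, since 4 of 18 same-numbered pairs of arrays had a correlation of deviations above 0.1, with a median of -0.02, and 2 of 12 arrays correlated best with their own number. Signal over background limits Alox15, Ptgfr and Alox12e.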
